A study of Homo sapiens with 6 samples.

Results

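Zinc transporters of the SLC39 and SLC30 families were read from the expression arrays of JJN3 cells, a human multiple myeloma cell line, after knockdown of CKS1B. SLC39A10 was chosen by its measured difference: it was among the genes that passed an adjusted p of 0.05 when 1 of the CKS1B arrays was left out. Its 9 companions were chosen as relatives of the same 2 families: the importers SLC39A6, SLC39A1, SLC39A7, SLC39A8, SLC39A9 and SLC39A14, and the exporters SLC30A1, SLC30A5 and SLC30A7. Together these 10 genes are 10 of the 24 family genes on the array and 10 of its 19777 named genes, and they are measured by 31 of 54613 probe sets.

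The 6 arrays, all Affymetrix Human Genome U133 Plus 2.0, fell into 2 groups of 3. In 1 group JJN3 cells had received, by lentivirus, a short hairpin RNA (shRNA) against CKS1B, which encodes a small binding partner of cyclin-dependent kinases, and in the other a scrambled shRNA. All cells therefore carried a lentiviral shRNA, and there were no untransduced cells. The arrays of each group are lettered A, B and C. The title of scrambled array B alone has an extra word, 'poly', joined by a plus sign. No label explains it or says whether that array was treated otherwise. Nor does any label say whether the arrays came from separate cultures, so that p-values measure only the spread between arrays, which may be technical.

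Zinc serves as a structural and catalytic metal in many proteins, and its free level in the cytosol is held low. ZIP proteins (the SLC39 family) move zinc into the cytosol, from outside the cell or from organelles, and ZnT proteins (the SLC30 family) move it out of the cytosol, across the cell surface or into vesicles and the Golgi. The transcription factor MTF1 senses zinc, binds metal response elements and drives the metallothioneins, small zinc-storing proteins, and the exporter SLC30A1. In mouse, Slc39a10 is required for B cell survival and antigen receptor signalling, and MTF1 represses it when zinc is plentiful.

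The 250 bases upstream of the annotated starts of SLC39A10, SLC30A1 and MT2A, a metallothionein, are shown because these genes stand for the importer chosen here, the exporter driven by MTF1 and the classical MTF1 target. They are RefSeq sequences of GRCh38.p14, written 5′ to 3′ on the strand of the gene, at chr2:195656708-195656957 on the + strand for SLC39A10, chr1:211579162-211579411 on the - strand for SLC30A1 and chr16:56608334-56608583 on the + strand for MT2A. Capitals mark the core of the metal response element, searched as TGCACNC or TGCGCNC on both strands, where N is any base; overlapping matches run together.
SLC39A10: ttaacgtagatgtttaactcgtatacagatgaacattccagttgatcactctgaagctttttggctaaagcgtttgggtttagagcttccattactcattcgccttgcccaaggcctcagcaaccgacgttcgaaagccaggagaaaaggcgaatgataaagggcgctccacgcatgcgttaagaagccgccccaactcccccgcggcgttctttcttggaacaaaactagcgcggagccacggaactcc
SLC30A1: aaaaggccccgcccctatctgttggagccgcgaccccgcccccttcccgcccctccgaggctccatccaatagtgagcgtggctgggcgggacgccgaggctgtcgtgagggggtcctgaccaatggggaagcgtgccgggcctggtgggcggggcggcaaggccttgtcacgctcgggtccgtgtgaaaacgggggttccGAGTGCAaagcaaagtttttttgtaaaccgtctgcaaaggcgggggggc
MT2A: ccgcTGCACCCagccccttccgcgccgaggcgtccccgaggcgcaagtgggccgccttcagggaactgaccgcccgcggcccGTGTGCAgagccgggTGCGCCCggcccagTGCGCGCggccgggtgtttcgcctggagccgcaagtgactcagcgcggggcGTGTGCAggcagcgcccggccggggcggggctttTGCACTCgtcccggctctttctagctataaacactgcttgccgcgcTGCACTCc

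SLC39A10 held no match in this window or in that of its other annotated start, SLC30A1 held 1 match, 49 bases before the start, and MT2A held 7. Of the 9 transporters with a window in the table, 4 had a match in any of theirs: SLC39A6, SLC39A1, SLC39A8 and SLC30A1. Among all 35116 windows of this length, 24.8% held at least 1 match and 1.58% held at least 3. These shares are per window, whereas SLC39A1 and SLC39A8 each had a match in only 1 of several windows. The count of transporters therefore cannot be set against them. All 5 metallothioneins with a window held 3 to 8. A match is a description of letters only. Bases after the start and those farther upstream were not searched, so a window without a match does not mean a gene without the element.

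The target of the shRNA was checked first. The CKS1B probe set 201897_s_at read 481, 269.3 and 827.6 on the CKS1B shRNA arrays, against 8266, 8440.6 and 7293.9 on the scrambled arrays. The groups did not overlap, and an exact two-sided permutation test of 3 arrays against 3 gave p = 0.1, the smallest it allows. Among the CKS1B shRNA arrays, B differed from all others. It correlated with them at r = 0.577 to 0.610 over log2 values, where the other 5 correlated among themselves at 0.879 to 0.958. Its actin 3′/5′ signal ratio, a sign of RNA quality, was 12.4. This ratio was 2.93 on CKS1B shRNA array C and 1.11 on A, against 1.05 to 1.66 on the scrambled arrays. The GAPDH 3′/5′ ratio was 4.7 on CKS1B shRNA array B, 1.18 on C and 0.981 on A, against 0.985 to 1.17 on the scrambled arrays. Differences of the transporters' tested probe sets are therefore given on all 6 arrays and without CKS1B shRNA array B. Leaving out array B keeps array C, and the part that RNA quality had in any of these differences was not tested. Of 8 plasma cell marker genes, 7 passed the filter on dim probe sets and SLAMF7 did not, with 12.5 to 160.1 over its 3 probe sets. IRF4 read 3528.8 to 10256.6 over the 6 arrays and CD38 139.6 to 805.5. The plasma cell gene MZB1 was below every scrambled array on both of its probe sets, by -1.43 and -1.12, or -0.83 and -0.75 without array B. Of 4 B cell marker genes, 3 were matched and 2 passed the filter, MS4A1 and CD22, while PAX5 did not. MS4A1 was bright, at 4577.9 to 7996.1 over the 6 arrays on 228592_at. CD22 passed on 38521_at alone, at 94.0 to 440.1. The 4 monocyte probe sets together read 167.5 to 677.4 on the CKS1B shRNA arrays, against 179.0 to 298.0 on the scrambled arrays, and none of the 3 monocyte genes matched passed the filter. The 15 stroma probe sets together read 810.9 to 4180.1 with CKS1B shRNA, against 1150.2 to 2058.2 with scrambled shRNA. On array B the median over all probe sets was 334.0, against 117.5 to 201.6 on the other 5 arrays. The 5 T cell probe sets together read 3016.0 to 4597.4 with CKS1B shRNA, against 2244.6 to 2559.2 with scrambled shRNA. On each of the 5 taken alone, the groups overlapped. Array B was the highest of the 6 arrays on 4 of these probe sets and the lowest on 210031_at of CD247, with 775.5, against 1187.3 to 2705.5. That probe set made up most of the sum on CKS1B shRNA arrays A and C, at 2705.5 and 2444.8, against 1187.3 to 2114.5 on the scrambled arrays.

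All values are MAS5 signals, Affymetrix's per-array summary of a probe set, on a linear scale with each array scaled to the same trimmed mean of 500, and differences are of log2(value + 16), CKS1B shRNA minus scrambled shRNA. This scale understates the change of dim probe sets. Levels of different probe sets cannot be set against each other, and in bulk RNA fewer cells of a kind and less RNA per cell cannot be told apart. Adjusted p-values come from limma over every gene or probe set tested, with Benjamini-Hochberg adjustment. On all 6 arrays 0% of 12663 genes and 0% of 27307 probe sets passed an adjusted p of 0.05, where 373 genes and 742 probe sets had an unadjusted p under 0.05. Without CKS1B shRNA array B, 0.0476% of 12612 genes and 0.00732% of 27307 probe sets passed.

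SLC39A10, the importer also called ZIP10, had all 3 of its CKS1B shRNA values below the scrambled ones. Its only probe set, 225295_at, read 257.4 (array A), 655.3 (array B) and 162.8 (array C) with CKS1B shRNA, against 1444.3, 1476.1 and 1098.2 on the scrambled arrays. Array C was the lowest and array B, the array that stood apart, the highest of the CKS1B shRNA group, and that highest value was 59.7% of the lowest scrambled one. Expressed against the scrambled mean, the 3 CKS1B shRNA arrays stood at 19.2%, 48.9% and 12.2%. The means were 358.5 ± 261 with CKS1B shRNA and 1340 ± 210 with scrambled shRNA (SD, n = 3 each), a log2 difference of -2.07 (SE 0.49), or 4.2-fold lower. Without array B the difference was -2.60 (SE 0.30), or 6.08-fold lower. These values chose the gene and carry no test here. The 2 probe sets past the threshold without array B, in the fit over all probe sets, did not include that of SLC39A10. The gene has 1 probe set, so no second measurement on the array can be set beside it.

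**Figure D1:**
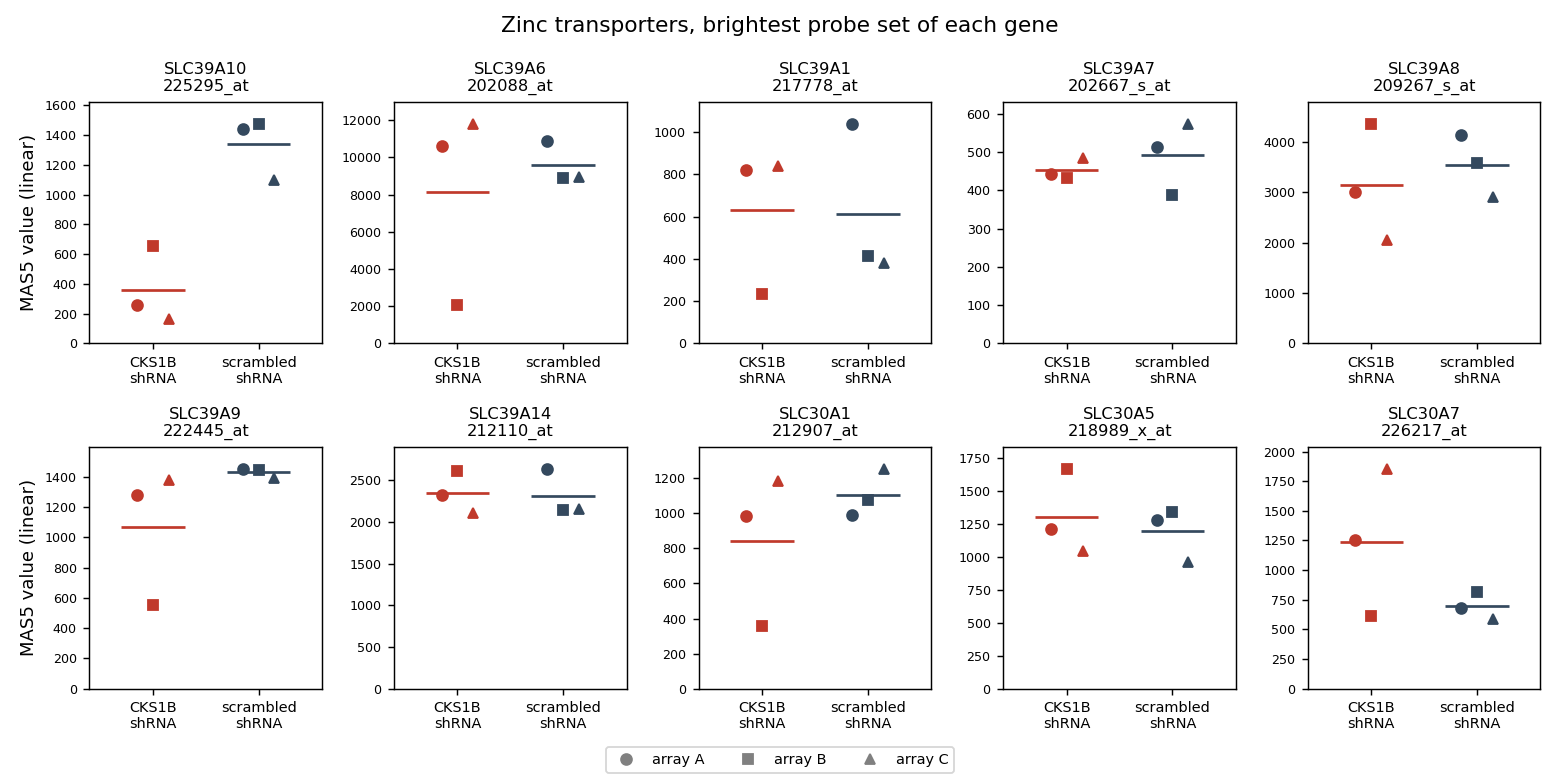
MAS5 value (linear, vertical axis from 0) of the brightest probe set of each of the 10 zinc transporters in the CKS1B shRNA and scrambled shRNA groups. Circles, squares and triangles are arrays A, B and C and horizontal lines are group means; SLC39A10 has its 3 CKS1B shRNA points between 162.8 and 655.3, below all scrambled points, and of the other 9 genes all but SLC39A9 have overlapping groups.

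SLC39A6, or ZIP6, is the closest relative of SLC39A10, and the 2 proteins form a heteromer. Its brightest probe set, 202088_at, read 10606.3, 2069.7 and 11812.6 with CKS1B shRNA, against 10866.0, 8902.3 and 8966.7 with scrambled shRNA. Arrays A and C were within or above the scrambled range and array B alone was low, so that the log2 difference of -0.58 (SE 0.71) became 0.23 without it. A second probe set, 202089_s_at, read 7929.9, 213.7 and 4049.7 with CKS1B shRNA, against 8461.7, 7244.0 and 5597.3 with scrambled shRNA. On array B the 4 probe sets of SLC39A6 deviated from the scrambled mean by -4.93 to 0.14 on the log2 scale, so that they disagreed with each other on that array. The differences of 202089_s_at, 1555460_a_at and 1556551_s_at were -1.85, -0.27 and -0.13 on 6 arrays, and -0.30, -0.48 and -0.05 without array B. None of the 4 separated the groups.

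The other importers are ZIP1, ZIP7, ZIP8, ZIP9 and ZIP14. SLC39A1, a widely expressed surface importer, read 821.6, 236.2 and 839.3 with CKS1B shRNA, against 1039.1, 412.0 and 381.2 with scrambled shRNA. Both groups spread widely, with overlapping ranges and a difference of 0.00 (SE 0.59), or 0.59 without array B. SLC39A7, which releases zinc from the endoplasmic reticulum and Golgi, read 442.4, 431.6 and 483.7 with CKS1B shRNA, against 514.0, 387.4 and 573.7 with scrambled shRNA. Its 6 values were close together, and the difference was -0.10 (SE 0.31), or -0.067 without array B.

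SLC39A8, an importer of zinc and manganese, has 6 probe sets, of which 4 passed the filter. The brightest, 209267_s_at, read 2999.5, 4360.7 and 2048.1 with CKS1B shRNA, against 4135.0, 3579.9 and 2908.7 with scrambled shRNA. Those groups overlapped, with a difference of -0.23 (SE 0.41), or -0.50 (SE 0.25) without array B. The next, 219869_s_at, read 1708.0, 1631.3 and 981.9 with CKS1B shRNA, against 2787.8, 2490.4 and 2041.5 with scrambled shRNA. Here every CKS1B shRNA array was below every scrambled array, with a difference of -0.78 (SE 0.37), or -0.89 without array B. Probe set 228945_s_at instead had a positive difference of 0.51, which rested on array B at 612.7, against 92.8 to 155.1 on the other 5 arrays, and was -0.26 without it. The remaining tested probe set, 216504_s_at, differed by -0.32, or -0.33 without array B.

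SLC39A9, an importer of the Golgi and cell surface, has 4 probe sets, of which 2 passed the filter. Its brightest probe set, 222445_at, read 1280.5, 551.2 and 1381.7 with CKS1B shRNA, against 1453.3, 1444.9 and 1392.1 with scrambled shRNA. The groups did not overlap, but arrays A and C lay just under the scrambled range and array B far below it: the difference of -0.52 (SE 0.41) was -0.10 without array B. Its other tested probe set differed by -0.10, or -0.55 without array B. SLC39A14, an importer of zinc, iron and manganese, read 2328.9, 2612.2 and 2109.4 on 212110_at with CKS1B shRNA, against 2638.2, 2149.3 and 2153.8 with scrambled shRNA. These ranges overlapped, with a difference of 0.02 (SE 0.32) that turned to -0.055 without array B, and its second tested probe set differed by -0.42, or -0.13 without array B.

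Among the exporters, SLC30A1, or ZnT1, carries zinc out across the cell surface. Its brightest probe set, 212907_at, read 984.4, 354.8 and 1185.5 with CKS1B shRNA, against 989.2, 1078.4 and 1253.9 with scrambled shRNA. Arrays A and C were close to the scrambled arrays and array B was low, so that the difference of -0.55 (SE 0.47) was -0.03 without it. Probe set 228181_at read 350.8, 45.2 and 191.9 with CKS1B shRNA, against 389.7, 545.0 and 249.3 with scrambled shRNA. Its difference was -1.23, or -0.51 without array B, and the groups overlapped.

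SLC30A5, or ZnT5, loads zinc into the secretory pathway. Its brightest probe set, 218989_x_at, read 1207.6, 1665.0 and 1039.3 with CKS1B shRNA, against 1278.5, 1338.1 and 959.3 with scrambled shRNA. Those groups overlapped, with a difference of 0.11 (SE 0.33) that turned to -0.073 without array B. Probe set 232432_s_at read 1103.2, 1035.2 and 740.4 with CKS1B shRNA, against 1331.8, 1320.1 and 1157.6 with scrambled shRNA. These groups did not overlap, with a difference of -0.42, or -0.48 without array B. The remaining tested probe sets of SLC30A5 went both ways, at -0.62 and 0.71, or -0.48 and 0.58 without array B.

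SLC30A7, or ZnT7, carries zinc into the Golgi, and it had the largest positive difference of the 10 genes on all 6 arrays. Probe set 226217_at read 1257.7, 608.6 and 1853.6 with CKS1B shRNA, against 678.5, 814.4 and 588.7 with scrambled shRNA. Arrays A and C were above every scrambled array and array B was not. The difference was 0.70 (SE 0.44), with a limma adjusted p of 0.933, and without array B it was 1.13 (SE 0.28), with a limma adjusted p of 0.411; over 19 alternatives this adjusted p lay between 0.315 and 0.9999. Probe set 226601_at read 1212.5, 1800.8 and 870.1 with CKS1B shRNA, against 586.2, 437.1 and 690.4 with scrambled shRNA. There every CKS1B shRNA array exceeded every scrambled array, by 1.12 (SE 0.39), or 2.17-fold, and by 0.85 without array B. Array B was the lowest CKS1B shRNA array on 226217_at and the highest on 226601_at. The dimmer 239596_at read 227.1, 614.2 and 115.4 with CKS1B shRNA, against 126.2, 155.3 and 92.3 with scrambled shRNA. These groups overlapped, with a difference of 0.98, or 0.37 without array B.

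None of the 9 transporters other than SLC39A10, which carries no test here, passed the threshold. On 6 arrays no gene did, and the target CKS1B itself had a limma adjusted p of 0.246. The limma adjusted p-values of the 9 transporters were 0.933 or higher on 6 arrays, where the lowest unadjusted value was 0.150. Without array B they were 0.411 to 0.980. At the level of probe sets, 0 of their 23 tested by limma passed either with or without array B, where 1 of 23 on 6 arrays and 3 of 23 without array B had an unadjusted p under 0.05. The share over all 27307 probe sets was 2.72% on 6 arrays and 7.68% without array B. On 6 arrays 1 of the 23 read higher in every CKS1B shRNA array than in any scrambled array, where 4.88% of all probe sets did, and 3 read lower, where 5.62% did. Without array B these counts were 2, where 11.6% of all probe sets did, and 5, where 14.3% did. The count of lower probe sets on 6 arrays is open to the scaling: it was 0 after centring each array on its median and 1 after quantile normalization. Of the 23, 8 were lowest of all 6 arrays on array B and 7 were highest on it.

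**Figure D2:**
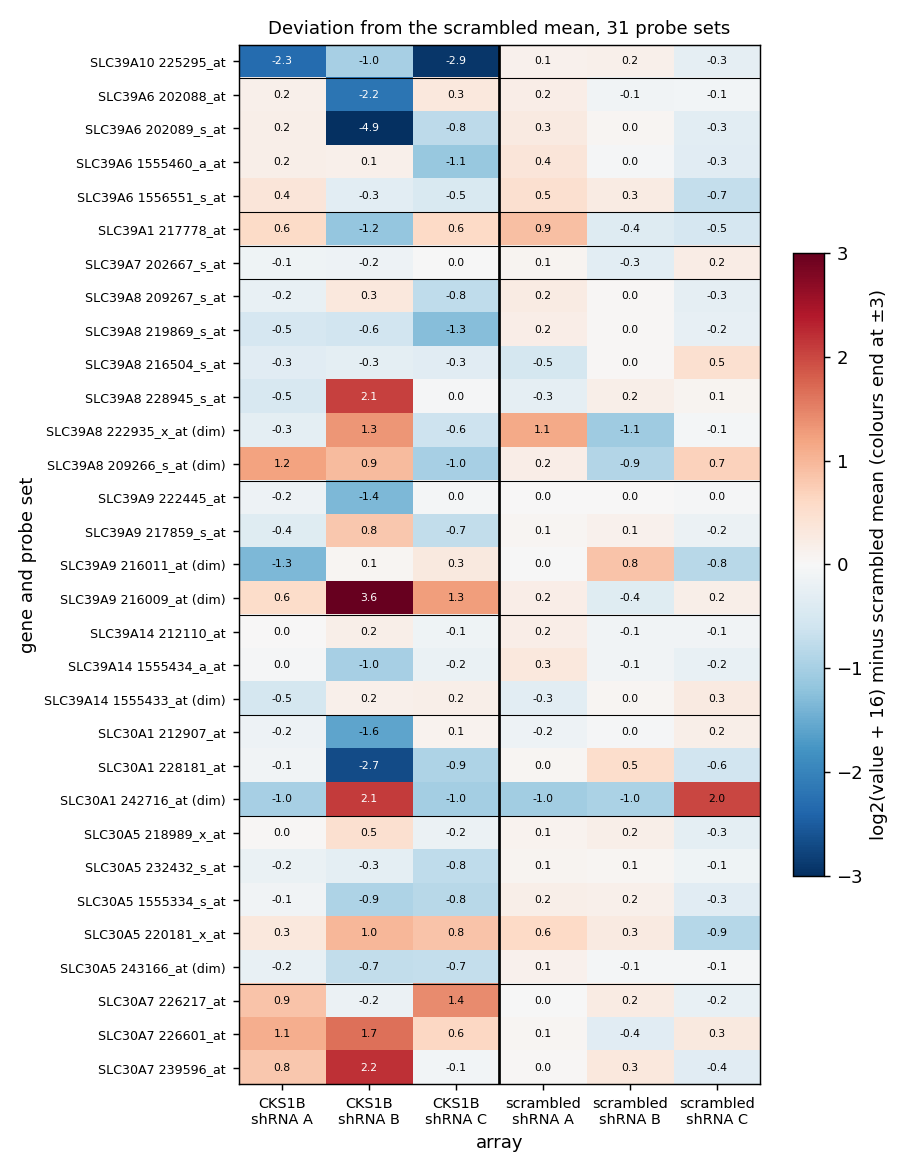
Deviation of log2(value + 16) from the scrambled mean for all 31 probe sets of the 10 genes (rows) on the 6 arrays (columns), red for higher and blue for lower, with the value in each cell; rows marked dim did not pass the filter. SLC39A10 is blue in all 3 CKS1B shRNA columns, and the column of CKS1B shRNA array B has the largest deviations in both directions, down to -4.93 for SLC39A6.

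The 7 dim probe sets, of SLC39A8, SLC39A9, SLC39A14, SLC30A1 and SLC30A5, were not tested. They read between 6.8 and 216.1 on the 5 arrays other than CKS1B shRNA array B, and up to 729.3 on that array. That highest value was of 216009_at for SLC39A9, which read 72.3 and 128.2 on arrays A and C of that group, against 53.6, 30.6 and 51.6 on the scrambled arrays.

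Set side by side by direction of transport, the importers had a median log2 difference of -0.23, or -0.16 without SLC39A10, with 2 of 7 higher and 5 lower. The exporters had a median of 0.11, with 2 of 3 higher and 1 lower. Over all 12663 genes tested the median was -0.08 and 55.7% were lower. Without array B the medians were -0.07 for importers, -0.03 for exporters and -0.03 for all genes. The sign of the exporter median depended on the scaling: centring each array on its median, which moved the median of all genes by -0.23, gave -0.12 for the exporters, and all 7 importers were then lower. Nothing is read from these medians about the families, since SLC39A10 was selected on its value.

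**Figure D3:**
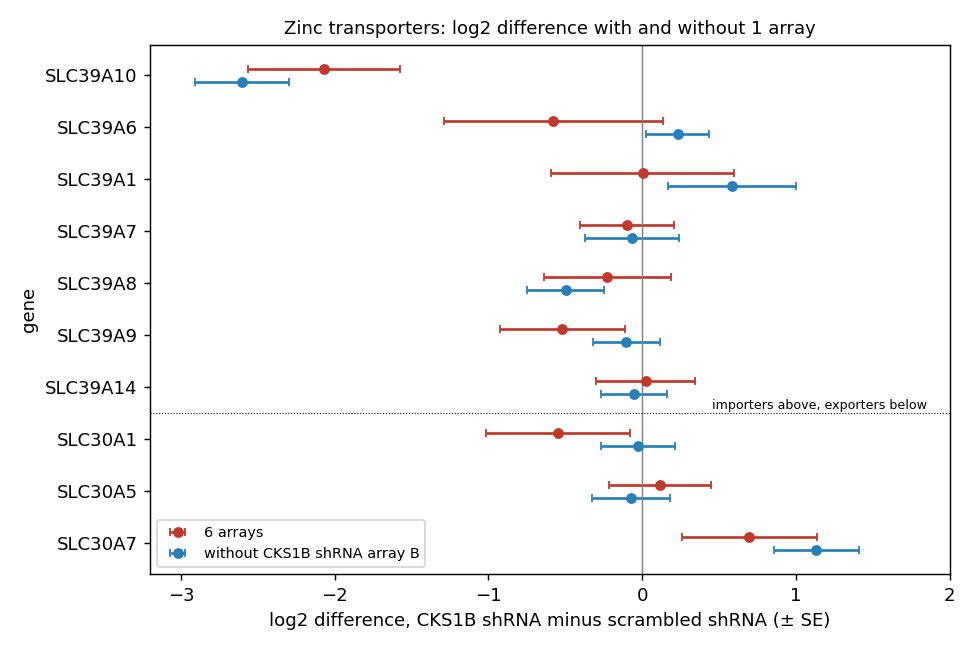
Log2 difference (horizontal axis, CKS1B shRNA minus scrambled shRNA) of each zinc transporter with its SE from limma, on all 6 arrays (red) and without CKS1B shRNA array B (blue). SLC39A10 lies at -2.07 and -2.60, away from the other 9 genes, whose differences lie between -0.58 and 0.70 on 6 arrays; the points of SLC39A6, SLC39A1, SLC30A1 and SLC39A10 shift most when the array is left out.

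The rest of the zinc system was read from 4 further lists. Of their 37 genes, 28 were tested on 6 arrays and 0 passed by limma. Of the 28, 1, MTF1, had an unadjusted p under 0.05 by limma, as had 373 of all 12663 genes tested. On the probe set used for each gene, MTF1 and SLC39A13 read higher in every CKS1B shRNA array than in any scrambled array, as did 625 of the 12663 genes. Of the 28, 0 read lower in this way, where 812 of the 12663 did. Without array B, 0 of 27 passed and the lowest limma adjusted p was 0.486. The other ZIP genes had 4 of 6 tested higher and 2 lower, with a median of 0.46, and 5 higher and 1 lower without array B, with a median of 0.24. The other ZnT genes had 0 of 4 higher and 4 lower, with a median of -0.52, which was -0.08 over 3 tested without array B.

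SLC39A13, or ZIP13, an importer of intracellular vesicles, read 1388.9, 1529.4 and 1246.6 on 1552295_a_at with CKS1B shRNA, against 893.1, 870.8 and 996.0 with scrambled shRNA. The groups did not overlap, with a difference of 0.58 (SE 0.29), or 0.51 without array B, but those of its other probe set did. SLC39A4, the importer of dietary zinc, averaged 2770 ± 1790 with CKS1B shRNA and 3410 ± 107 with scrambled shRNA (SD, n = 3 each), and its difference of -0.53 was 0.02 without array B. SLC30A9 averaged 1187 ± 843 with CKS1B shRNA and 1557 ± 411 with scrambled shRNA (SD, n = 3 each), and its difference of -0.74 was 0.08 without array B. SLC30A6, the partner of SLC30A5, differed by -0.30, or by -0.075 without array B, and its other tested probe sets went both ways, at -0.49 and 0.36.

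MTF1, the zinc sensor, had its brightest probe set 205322_s_at at 973.5, 1441.9 and 1087.5 with CKS1B shRNA, against 685.2, 470.1 and 661.8 with scrambled shRNA. Probe set 227150_at read 635.9, 866.7 and 683.3 with CKS1B shRNA, against 386.1, 434.5 and 366.0 with scrambled shRNA. On both, all CKS1B shRNA arrays lay above all scrambled arrays, array B highest, with differences of 0.93 (SE 0.32) and 0.85, or 0.77 and 0.72 without array B. The remaining 205323_s_at read 641.4, 628.5 and 583.4 with CKS1B shRNA, against 678.2, 538.4 and 549.5 with scrambled shRNA, and overlapped, at 0.07. The first had a limma adjusted p of 0.933, and of 0.486 without array B; over 19 alternatives this adjusted p lay between 0.374 and 0.9999.

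On the brightest probe set of each gene, 4 of 7 metallothioneins tested were higher and 3 lower on 6 arrays. Their differences lay between -0.61 and 0.50, with a median of 0.09. Without array B, 0 were higher and 7 lower, between -0.53 and -0.06, where 53.3% of all 12612 genes tested were lower. The groups of all 7 overlapped. A dimmer probe set of MT1E, 212859_x_at, was below every scrambled array, where 5.62% of all probe sets were. Its difference was -0.89, or -0.60 without array B, while the brightest MT1E probe set overlapped, at -0.48. MT2A, whose upstream bases are printed above, read 1332.3, 485.0 and 1778.3 with CKS1B shRNA, against 1526.1, 2025.6 and 1351.9 with scrambled shRNA. MT1X read 1539.3, 2116.3 and 996.1 with CKS1B shRNA, against 1406.5, 1546.9 and 1226.1 with scrambled shRNA. Both overlapped between the groups, and array B was the lowest of 6 for MT2A and the highest for MT1X. Of the 9 metallothionein probe sets that passed the filter, 8 carry the suffix of probe sets that can bind several related transcripts, so that these near-identical genes cannot be told apart with certainty.

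Of the list of zinc sensors and partner proteins, to which MTF1 belongs, 5 of 11 tested were higher and 6 lower, with a median of -0.02, or -0.13 without array B. CSNK2B and CSNK2A1 encode subunits of protein kinase CK2, which phosphorylates SLC39A7. CSNK2B read 16517.3, 1125.1 and 27343.4 with CKS1B shRNA, against 14395.1, 12959.6 and 13909.1 with scrambled shRNA, and its difference of -0.78 was 0.63 without array B. CSNK2A1 differed by -0.95, or by -0.19 without array B.

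**Figure D4:**
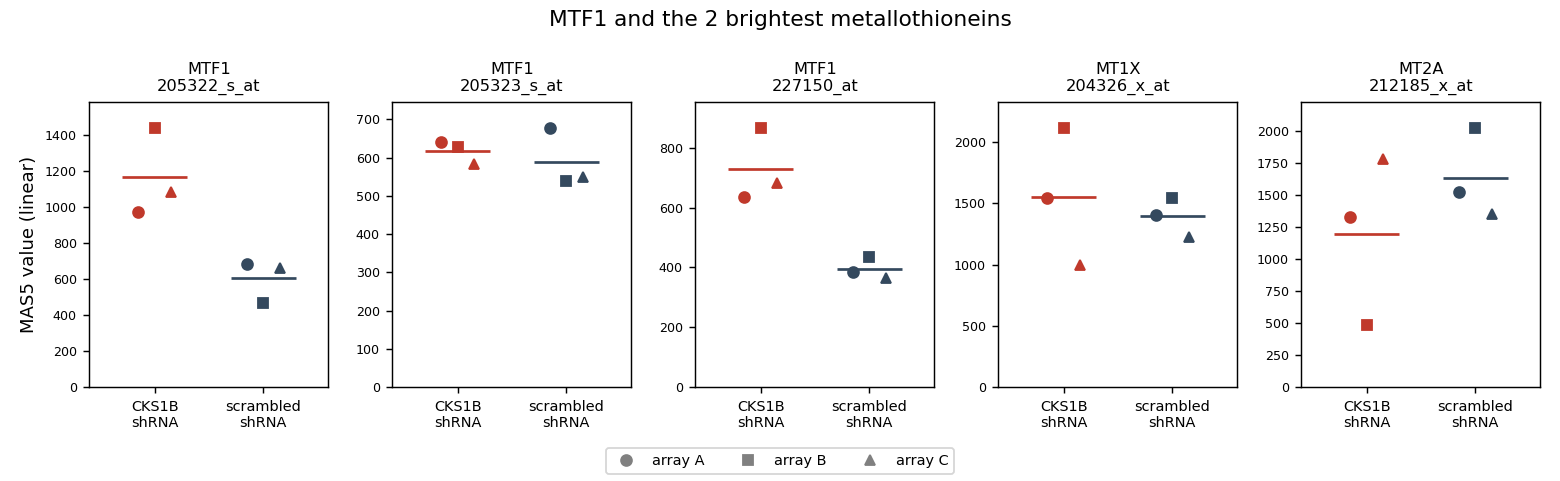
MAS5 value (linear, vertical axis from 0) of the 3 MTF1 probe sets and of MT1X and MT2A in the CKS1B shRNA and scrambled shRNA groups, with circles, squares and triangles for arrays A, B and C and lines for group means. The groups are separate on 205322_s_at and 227150_at of MTF1 and overlap on 205323_s_at and on both metallothioneins.

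The 6 genes whose log2 values were most like those of SLC39A10 over the 6 arrays were LPGAT1 (Pearson r 0.99), CHMP1B (0.982), PNP (0.981), RPIA (0.978), NEDD9 (0.974) and PITPNB (0.974). Of 12661 genes compared, 75 had r above 0.9 and 42 had r below -0.9. The 6 points share the 2 groups and the 1 array that stood apart, so that any gene lower with CKS1B shRNA, and least so on array B, scores high. PNP, purine nucleoside phosphorylase, read 1212, 1617.2 and 855.3 with CKS1B shRNA, against 2571.6, 3228 and 2536.8 with scrambled shRNA, a difference of -1.21, or -1.43 without array B. Like SLC39A10, for likeness to which it was chosen, it was highest on array B and lowest on array C within its CKS1B shRNA group. Of the transporters, SLC30A7 had r = -0.859 and SLC39A8 r = 0.712 with SLC39A10, and the other 7 had r between -0.324 and 0.272.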

How the data were processed

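RNA of JJN3 cells was hybridised to 6 Affymetrix U133 Plus 2.0 arrays, 3 with CKS1B shRNA and 3 with scrambled shRNA. The deposited values are linear intensity per probe set and come from MAS5, per the submitters' processing notes. The MAS5 version and settings are not given in the sources used, and the trimmed mean (2% off each end) of 500 on every array is read from the values. The number of arrays limits the precision. The 62 control probe sets were left out. By GEO's platform annotation 41091 probe sets name 1 gene, 1801 several and 11721 none.

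Values were taken as log2(value + 16). Probe sets whose mean over the arrays was under the median of all such means (7.34, or a linear value near 146) were not tested, and 24 of the 31 zinc transporter probe sets passed. A gene was represented by its brightest probe set naming 1 gene. limma 3.58.1 in R 4.3.3 (lmFit, eBayes with trend) compared the groups over all genes and, separately, all probe sets, with Benjamini-Hochberg adjustment. The procedure was tested on simulated data with the same spread on every array, so that this test does not cover data with an array that stands apart. Genes were named by rule: CKS1B, the 10 transporters, from each further zinc list the genes past the threshold or else up to 4 of largest difference without overlap, plus the 2 with the brightest probe sets (a choice of what to name, not a comparison of levels), and the 6 genes most like SLC39A10. MT1E was named outside this rule, for its dimmer probe set. The metal response element was searched in the 250 bases before each RefSeq start. The members and lists were chosen with earlier results of these data known. Same-letter arrays deviated together for A (r 0.402) but not for B (-0.0809) or C (-0.0796), and the letters were not used as pairs. This check cannot exclude pairing, since CKS1B shRNA array B enters the group mean from which A and C deviate. The titles number the arrays of a letter consecutively. Alternatives were other pseudocounts, filters, probe set choices and normalizations, array weights, a block on the letter and leaving out each array. After seeing the data, quantile normalization without CKS1B shRNA array B and leaving out both B arrays were added.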

Additional observations from a re-analysis of the deposited data

How the results depend on the processing

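SLC39A10 was lower with CKS1B shRNA in all 19 alternatives, with differences of -2.60 to -1.65. Its groups did not overlap on the values that chose it, so leaving out arrays or changing the pseudocount or filter could not change this sign. The count of 19 is therefore no support for the difference. The call it was chosen by is less stable: it passed the threshold in 2 of the 19, without CKS1B shRNA array B and with array weights. The fit without array B is the one that chose it. It did not pass on all 6 arrays, nor with quantile normalization without array B, nor without both B arrays. None of the other 9 transporters passed the threshold in any alternative. The count of genes past the threshold, 0 on 6 arrays, was 0 to 6 when 1 array was left out (6 without CKS1B shRNA array B), 4 with array weights, 2 with quantile normalization without array B and 1 without both B arrays; these last alternatives were chosen after seeing the data. With the letter as a replicate block it was 0, with 355 genes at an unadjusted p under 0.05, and the difference of SLC39A10 was -2.07; not every array correlated best with its own letter, as same-letter r was 0.402 for A and below 0 for B and C. The exporter median was -0.12 after centring on the median and 0.32 after quantile normalization.

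The differences below changed sign, among them some of the larger ones on 6 arrays (CSNK2A1, CSNK2B, SLC30A9, MT2A and SLC39A6), and the cause was not tested. With array weights, SLC30A5 was -0.14, SLC39A14 -0.052, SLC39A6 0.11, SLC39A7 0.022, SLC39A4 0.048, MT1X -0.14 and CSNK2B 0.42. Without both B arrays, SLC39A14 was -0.10, SLC39A6 0.18, SLC39A4 0.012, SLC30A9 0.070, SLC30A6 0.041, MT1X -0.083, MT2A 0.10 and CSNK2B 0.59. After centring, SLC30A5 was -0.12, SLC39A1 -0.23, SLC39A14 -0.21 and MT1X -0.14. Averaging all probe sets of a gene, SLC30A5 was -0.053 and SLC39A14 -0.20. After quantile normalization, SLC39A1 was -0.29, SLC39A8 0.052 and CSNK2A1 0.18, and without array B SLC30A5 was -0.053, SLC39A14 -0.10, SLC39A7 0.042, SLC30A9 0.077, MT1X -0.16 and CSNK2B 0.064. SLC39A1 was -0.00064 with a pseudocount of 1, and CSNK2A1 was 0.19 over probe sets without a suffix, a choice that gave no value for SLC39A7, SLC39A8 and SLC30A5.

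Leaving out 1 array at a time gave -0.073 to 0.26 for SLC30A5, -0.30 to 0.59 for SLC39A1, -0.055 to 0.12 for SLC39A14, -1.02 to 0.23 for SLC39A6, -0.26 to 0.018 for SLC39A7, -0.50 to 0.045 for SLC39A8, -1.02 to 0.019 for SLC39A4, -1.28 to 0.082 for SLC30A9, -0.16 to 0.38 for MT1X and -1.66 to 0.63 for CSNK2B. With 3 arrays a group, 1 of them apart from the rest, such differences could not be resolved, and probe sets near background were not tested.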
